A study of Arabidopsis thaliana with 4 samples.

Results

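The tiles of plates TB50 to TB99 are the last 50 plates of tile set TB on a 2-colour tiling array of Arabidopsis thaliana, a small flowering plant. A tile is a stretch of sequence spotted on the array, and its identifier gives the set, the plate, the row (A to H) and the column (1 to 12). The tiles were taken by identifier, although this range was chosen with earlier results of these data known. In it fall 4800 identifiers, and the 4781 with a score on every array are described. They make up 22.0% of the 21716 scored tiles. Looked up in the TAIR10.1 gene table, 0 of the 4800 identifiers matched. The tiles are therefore named by identifier, with no gene, sequence or genome position.

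The study measured trimethylation of lysine 9 on histone H3 (H3K9me3) in untreated seedlings of ecotype col-0, 10 days old, kept at 22 °C in liquid culture under a 16 h photoperiod. Seedlings hold many cell types, and each score averages over them. Immunoprecipitated and input chromatin of 2 preparations, I and II, were hybridised together, each preparation on 2 arrays with the dyes exchanged. All 4 arrays form 1 group, with no second genotype or treatment beside it. Both arrays of a preparation hold identical scores at all 21716 scored tiles, so n = 2 preparations throughout, and the labels do not say whether these came from separate cultures.

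Histones are the proteins around which DNA is wound, and methyl groups on their tails are written and read by dedicated proteins. Methylation of lysine 9 marks condensed, silent chromatin in animals and fungi. In Arabidopsis the dimethylated form is the one tied to transposons and DNA methylation, whereas the trimethylated form has been described mainly over genes in euchromatin. The comparison asks how strongly each tiled stretch was recovered with the antibody relative to input.

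Scores are given as differences from the median of all scored tiles of the same preparation, in score units. The log base and the direction of the score are not given in the sources used here. "Higher" and "lower" thus refer to the score and not to an amount of the mark, and all directions below would turn together with the sign.

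The block stood above the array median in both preparations. The median tile of the block scored 0.19 in preparation I and 0.17 in preparation II, whereas the median of the 16935 other tiles was -0.040 in I and -0.046 in II. The difference between the block and all other tiles was 0.22 ± 0.0072 (SD, n = 2). Its size depends on what the other tiles hold. A mean of -0.5 or less was found at 13.2% of them, against 4.93% in plates TB00 to TB49 and 8.34% in plates TA60 to TA99. Against the 4786 tiles of plates TB00 to TB49, the nearest plates of the same set, the difference was 0.092 in I and 0.094 in II. Against the 3836 tiles of plates TA60 to TA99 it was 0.14 in I and 0.10 in II. All 3 differences were positive in both preparations, but a two-sided exact sign-flip permutation test over 2 preparations cannot give a p below 0.5, and each of them gave p = 0.5.

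The difference from all other tiles was larger at the 90th percentile than at the median, and it was small at the 99th. The block's 90th percentile was 1.46 in I and 1.22 in II, against 1.12 and 0.93 in all other tiles. Its 10th percentile was -0.39 in I and -0.37 in II, against -0.54 and -0.62. The 90th percentile lay above that of plates TB00 to TB49 by 0.14 in I and 0.16 in II. At the 10th percentile the same comparison gave 0.0034 in I and 0.071 in II, so that the size of this last difference was not shared by the preparations. The 99th percentile of the mean score was 1.97 in the block, 1.94 in all other tiles, 1.92 in plates TB00 to TB49 and 2.04 in plates TA60 to TA99, so the block was not the highest there. The 1st percentile was -0.68 in the block, -0.88 in all other tiles and -0.73 in plates TB00 to TB49.

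**Figure D1:**
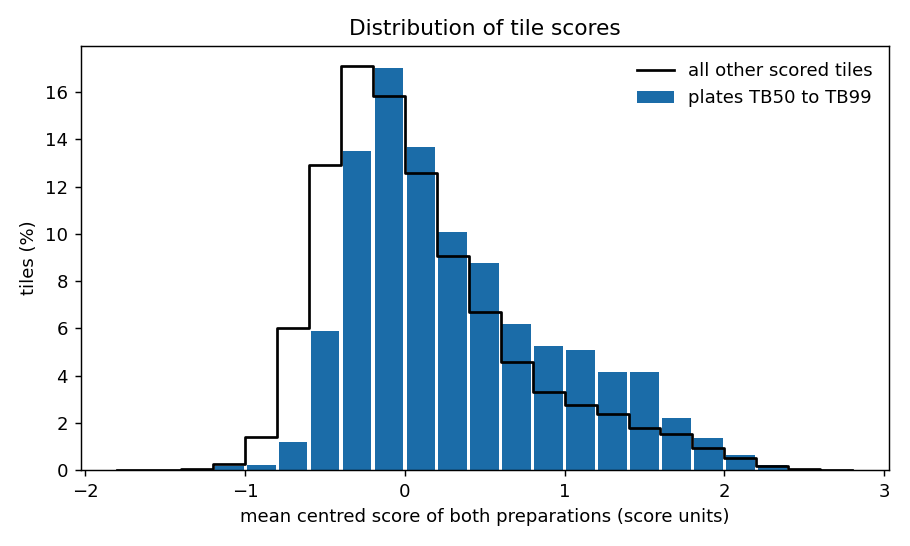
Distribution of the mean centred score of both preparations (horizontal axis, score units) as a percentage of tiles (vertical axis) for the 4781 tiles of plates TB50 to TB99 (bars) and for the 16935 other scored tiles (line), in bins 0.2 wide. The bars lie below the line in the bins from -1 to -0.2 and above it in every bin from -0.2 to 2.4; from -0.6 to -0.4 they hold 5.9% of the block against 12.9% of other tiles, and from 1.4 to 1.6 they hold 4.16% against 1.81%.

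Many tiles of the block reached a high score. A mean score of 1 or more was found at 855 of the 4781 tiles (17.9%), where 11.9% of all scored tiles reached it. The block thus held 33.1% of all such tiles with 22.0% of the scored tiles. The share was 20.0% in preparation I alone and 15.2% in preparation II alone. Plates TB00 to TB49 gave 15.7% in I and 11.1% in II, and plates TA60 to TA99 gave 12.8% and 9.7%. The order of the 3 blocks was the same in both preparations.

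Low scores were fewer than over the whole array, as they were on the neighbouring plates. A mean of -0.5 or less was found at 191 tiles of the block (3.99%), where 11.2% of all scored tiles reached it, and a mean of -1 or less at 12 tiles (0.251%), where the share of all tiles was 0.327%. Plates TB00 to TB49 had 4.93% at -0.5 or less. In preparation I alone the block had slightly more such tiles than TB00 to TB49, 5.56% against 5.33%, and in preparation II fewer, 4.33% against 7.06%. With zero set at the mode of the scores in place of their median, the count at -1 or less was 4. The share over all tiles at that zero is not given here.

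Each tile's mean was also tested against 0 with limma across all 21716 tiles (two-sided, Benjamini-Hochberg adjusted p under 0.05, n = 2). Of the block's tiles, 2036 scored higher (42.6%), where 31.6% of all tiles were called higher. A further 608 scored lower (12.7%), where 25.0% of all tiles were called lower. Among the called tiles of the block 77.0% were higher, whereas the other tiles had 4820 higher and 4812 lower ones. All tiles shared 1 estimated spread, 0.20 score units per preparation, so a call amounts to a mean more than 0.31 from the median and carries no information of its own on a tile's error. The lower count rests on the zero: with the mode as the zero it became 199 (4.16%, where 11.5% of all tiles were lower), and 92.1% of the block's calls were higher, against 76.4% over all tiles. On scores as deposited, with no centring, 185 tiles were higher (3.87%, all tiles 3.06%) and 3650 lower (76.3%, all tiles 84%). The higher share of the calls was then 4.82%, near the 3.51% of all tiles. A minimum difference of 0.5 in limma's treat test left 1053 higher tiles (22%, all tiles 14.9%) and 22 lower ones (0.46%, all tiles 1.08%).

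The preparations ranked the tiles of the block alike. Its 4781 tiles gave a Pearson correlation of 0.92 and a Spearman correlation of 0.89, a description over tiles that share arrays and neighbours. Either preparation put 1005 tiles at 1 or more, and both did so for 676 of them (67.3%). Over all scored tiles both did so for 2059 of 3083 (66.8%), and the correlations were 0.92 and 0.88. These are near the values of the block. The scores of high tiles were larger in preparation I. The 855 tiles with a mean of 1 or more had mean values of 1.55 in I and 1.30 in II, and 713 of them were higher in I. This held over the whole array, where 2174 of the 2585 such tiles were higher in I, with mean values of 1.58 and 1.32. A difference of at least 0.5 between the preparations was found at 377 tiles of the block (7.89%), where 7.20% of all scored tiles had one. That share is near that of all tiles.

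**Figure D2:**
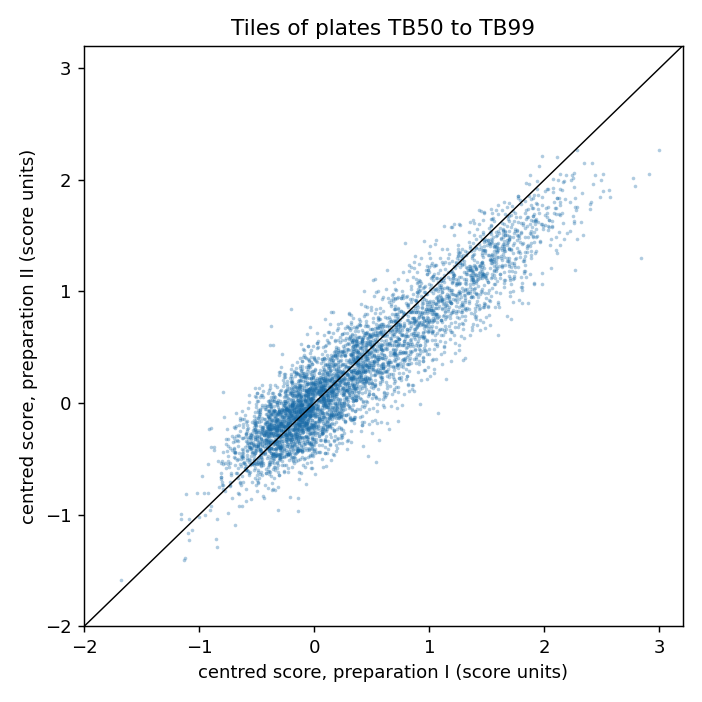
Centred score in preparation I (horizontal axis) against preparation II (vertical axis), in score units, with 1 point for each of the 4781 tiles of plates TB50 to TB99; the line marks equal scores. The points follow the line (Pearson's r 0.92), and most of those at the upper end lie on the side of preparation I.

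Tile TB53E01 had the highest mean of the block, with 2.995 in preparation I and 2.27 in preparation II (mean 2.63 ± 0.52, SD, n = 2). Its neighbours TB53D12 and TB53E02 were high as well, at means of 1.79 and 1.57, and the score fell to 0.096 at TB53E03. TB98E03 followed with 2.91 in I and 2.05 in II, and TB79E05 with 2.77 in I and 2.02 in II. TB98C05, on the same plate as TB98E03, scored 2.79 in I and 1.94 in II. All 10 of the highest tiles had a neighbour at 1 or more. All 10 were higher in preparation I than in II, as were most high tiles of the whole array.

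The other 6 of these tiles had means from 2.24 to 2.28. TB78D01 scored 2.41 in I and 2.15 in II. TB63F07 repeated most closely among the 10, at 2.29 in I and 2.26 in II. TB85B10 and TB85C04 lie on the same plate, at 2.51 and 2.34 in I and at 2.05 and 2.15 in II. TB60A11 had 2.49 in I and 2.00 in II, and TB83F11 had 2.44 and 2.04. These tiles were chosen as extremes of the tested scores, so their adjusted p, at most 7.95e-54 with limma, adds no separate support.

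The lowest tile was TB94B09, with -1.68 in preparation I and -1.59 in preparation II (mean -1.63 ± 0.065, SD, n = 2). It formed a short dip with the tiles after it, TB94B10 at a mean of -1.16 and TB94B11 at -0.59, whereas TB94B08 before it had -0.14. TB84B01 was low between tiles above the median. It scored -1.13 in I and -1.41 in II, with TB84A12 before it at a mean of 0.86 and TB84B02 after it at 0.51.

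TB53C06 scored -1.13 in I and -1.39 in II and was followed by TB53C07 at a mean of 0.94. The adjacent tiles TB93E04 and TB93E05 had means of -1.08 and -1.10. TB69A12, TB88G02, TB78H10 and TB72A05 had means of -1.13, -1.10, -1.07 and -1.06. Of the 10 lowest tiles, 6 had a neighbour at -0.5 or less, so the remaining ones were lone dips. All 10 were below -0.8 in both preparations, and their limma adjusted p was at most 5.14e-13, with the same reservation on their choice.

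The 5 tiles on which the preparations differed most lay on plates TB60, TB61 and TB64. TB61A11 was high in both, at 2.84 in I and 1.30 in II, and differed by 1.54. TB64D08 likewise was high in both, at 2.26 and 1.19. TB60A07 scored 1.07 in I and -0.088 in II, TB60C04 0.54 in I and -0.53 in II, and TB60H01 -0.38 in I and 0.69 in II, so that these 3 tiles changed sign between the preparations. The limma test called TB60A07 higher (adjusted p = 0.0014) in spite of this, since it applies the shared spread to every tile. TB60C04 (adjusted p = 0.98) and TB60H01 (adjusted p = 0.34) did not pass. Plate TB60 had the widest spread between preparations of all 50 plates, with an SD of 0.36 across its tiles, and TB61 followed with 0.35, where the median plate had 0.27 and the narrowest, TB77, 0.22.

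High tiles formed short stretches. The 855 tiles at 1 or more made 417 unbroken runs along the identifiers, 2.05 tiles long on average. Of these runs 193 held 1 tile, 119 held 2 tiles and 105 held 3 or more, and the last held 49.6% of the high tiles. The starts of successive runs were 9 tiles apart in the median (quartiles 5 and 14). Plates TB00 to TB49 had 317 runs with a mean length of 2.02, and plates TA60 to TA99 had 210 runs with a mean length of 2.03. Per 1000 scored tiles these are 87.2 runs in the block, 66.2 in plates TB00 to TB49 and 54.7 in plates TA60 to TA99. The larger number of high tiles in the block thus went with more runs and not with longer ones. This is a description of the 3 blocks, and their difference in runs was not tested.

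The longest run of plates TB00 to TB49 held 20 tiles and that of plates TA60 to TA99 held 8. In the block the longest run held 13 tiles, from TB95G12 to TB95H12. The mean over its tiles was 1.54 ± 0.21 in I and 1.34 ± 0.14 in II (SD across tiles), and every tile was at 1 or more in both. Scores in preparation I were 1.16 at TB95G12, 1.54 at TB95H01, 1.91 at the highest tile TB95H06 and 1.54 at TB95H12. The run ended with the last well of its plate, and the first tile of plate TB96 had 1.11 in I and 0.35 in II. This was a broad plateau that the tiles before it reached gradually, over TB95G10 at a mean of 0.66 and TB95G11 at 0.89.

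The other 2 runs of at least 8 tiles held 10 tiles each. TB73A07 to TB73B04 averaged 1.74 ± 0.26 in I and 1.65 ± 0.31 in II. It began abruptly, with means of -0.47 at TB73A04, 0.074 at TB73A05, 0.94 at TB73A06 and 1.83 at TB73A07, had its highest mean, 2.10, at TB73A09 and then declined tile by tile to 1.24 at TB73B04. TB83E09 to TB83F06 averaged 1.68 ± 0.32 in I and 1.61 ± 0.30 in II and had its highest mean within the run, at TB83F02, with 1.98 in I and 2.21 in II. After it the score dropped from 1.11 at TB83F06 to 0.039 at TB83F07, and it was back at 2.24 on TB83F11, 1 of the 10 highest tiles.

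**Figure D3:**
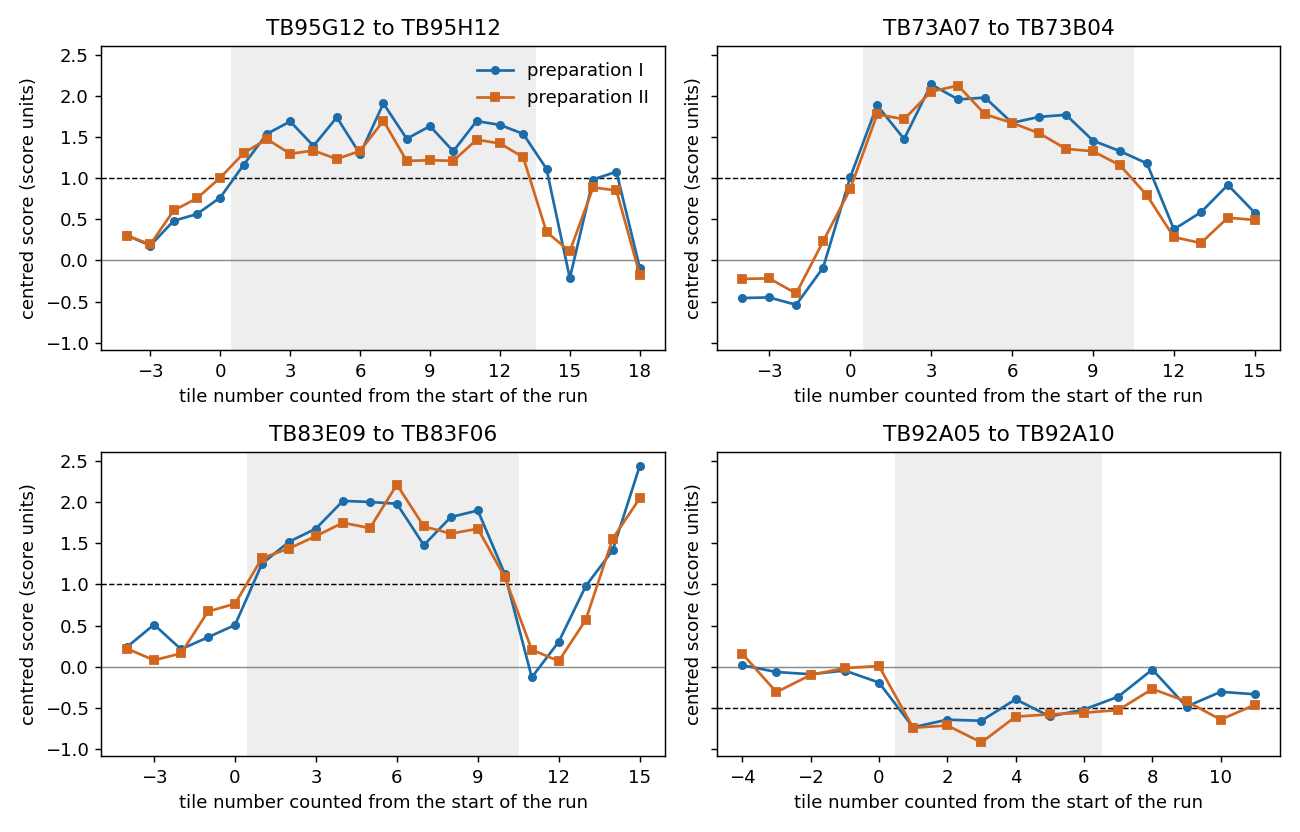
Centred score (vertical axis, score units) of each tile in preparations I and II along the 3 longest runs at 1 or more and the longest run at -0.5 or less, with 5 tiles on either side; the horizontal axis counts tiles from the start of the run, grey marks the run, and the dashed line is its limit. Both preparations trace the same plateau over the 13 tiles from TB95G12, the steep start of the run at TB73A07, the drop after TB83F06 and the shallow trough from TB92A05.

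Low stretches were shorter. The 191 tiles at -0.5 or less formed 141 runs with a mean length of 1.35 tiles, and 107 of them held 1 tile. Low runs averaged 1.36 tiles in plates TB00 to TB49 (longest 5) and 1.53 in plates TA60 to TA99 (longest 8). In the block they were thus no longer than there on average. The longest low run of the block held 6 tiles, from TB92A05 to TB92A10, at -0.59 ± 0.12 in I and -0.69 ± 0.14 in II (SD across tiles). The next, TB55F12 to TB55G04, held 5 tiles at -0.57 in I and -0.72 in II, and it directly followed a high tile, TB55F11, with a mean of 1.0004. The remaining low runs held at most 3 tiles, and the first of these by identifier, TB57C04 to TB57C06, lay at -0.75 in I and -0.48 in II. TB55F12 also opened the longest stretch of the block without a tile at 1 or more, 64 tiles up to TB56D03, whose median was -0.17 in I and -0.14 in II.

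Neighbouring tiles scored alike over a short distance only. The mean score of a tile and that of the next identifier correlated with r = 0.62 over 4761 pairs. The correlation was 0.29 at a distance of 2 tiles, 0.14 at 3, 0.076 at 4 and 0.039 at 12. A tile in preparation I and the next tile in preparation II gave 0.59. In plates TB00 to TB49 the first value was nearly equal, 0.63, but the later ones were larger, 0.33 at 2 tiles, 0.20 at 3 and 0.17 at 4. Plates TA60 to TA99 gave 0.64, 0.37, 0.21 and 0.14. These are descriptions over tiles that share arrays, and the differences between blocks were not tested.

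Scores around local maxima were read in the preparation that had not been used to find them. A local maximum was a tile at 1 or more that exceeded the 3 tiles on either side. The 375 local maxima of preparation I averaged 1.32 ± 0.38 in preparation II (SD across tiles), 0.75 at the tile before and 0.72 at the tile after, 0.33 and 0.31 at 2 tiles, and 0.25 and 0.22 at 3 tiles. The 320 local maxima of preparation II averaged 1.66 ± 0.39 in preparation I, 0.93 and 0.97 at 1 tile, 0.46 and 0.42 at 2 tiles and 0.34 and 0.28 at 3 tiles. The profile was symmetric along the identifiers to within 0.1 score units at each of these distances. The rule for a maximum treats both sides alike, so near symmetry follows from it. The preparations rank the tiles alike, so the fall over the first 3 tiles also follows in part from the rule. From 3 to 6 tiles the means stayed between 0.22 and 0.31 in II and between 0.28 and 0.38 in I. The maxima of I in plates TB00 to TB49 gave 0.71 and 0.67 in II at 1 tile before and after. Plates TA60 to TA99 gave 0.73 and 0.74, so the profile was much the same there.

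**Figure D4:**
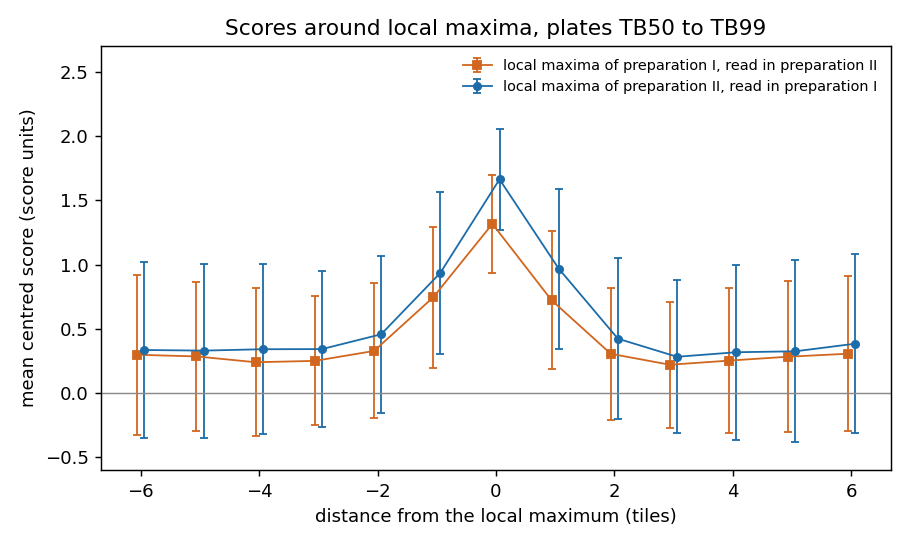
Mean centred score (vertical axis, score units; bars are the SD across tiles) at each distance in tiles (horizontal axis) from a local maximum, for the 375 maxima found in preparation I and read in II and the 320 found in II and read in I. Both curves come down from 1.32 and 1.66 at the maximum to between 0.22 and 0.34 at 3 tiles on either side.

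Steps between adjacent tiles were mostly small and sometimes abrupt. The median absolute step was 0.31 over the 4761 pairs, where the median absolute difference between the preparations at a single tile was 0.18. Between adjacent wells of a row the median step was 0.31, against 0.27 in plates TB00 to TB49 and 0.29 in plates TA60 to TA99. In the block a step of at least 1 was found at 376 pairs (7.9%), and the share on other plates is not given here. The largest was from TB63F05, at -0.32 in I and -0.95 in II, to TB63F06, at 2.57 in I and 1.84 in II. The next 2 were drops, from TB79E05 to TB79E06 (-0.55 in I and -0.29 in II) and from TB98E03 to TB98E04 (-0.11 and -0.38). In all 3 cases the scores of the high and of the low tile did not overlap between the preparations. These pairs were chosen as the largest steps of the mean score, so this adds no separate support. Across pairs the step in I and the step in II correlated with r = 0.85.

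The correlation was smaller where a plate ended. The last well of a plate and the first well of the next correlated with r = 0.27 over 49 pairs (0.26 in I and 0.24 in II), and their median absolute step was 0.43. Ends of rows within a plate, in contrast, gave r = 0.63 over 348 pairs and a median step of 0.31. Without the 2 pairs farthest from the median the plate edge gave 0.29. In plates TB00 to TB49 the value at the plate edge was 0.54 over 49 pairs (0.46 without the 2 farthest), and in plates TA60 to TA99 0.81 over 39 pairs (0.72). The difference between blocks was not tested.

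Most plates of the block lay above the array median, as did most of the nearest plates. By the mean score, 43 of 50 plates had a median above 0, against 37 of 50 in TB00 to TB49 and 23 of 40 in TA60 to TA99. The plate median was above 0 in both preparations on 40 of the 50 plates and below 0 in both on 4 (TB69, TB91, TB92 and TB99). The 50 plate medians of I and of II had a Pearson correlation of 0.92 and a Spearman correlation of 0.90. Differences between plates made up 4.41% of the variance among the block's tiles, 8.14% in plates TB00 to TB49 and 8.74% in plates TA60 to TA99. The SD of the plate medians did not follow this order, with 0.17 in the block, 0.17 in TB00 to TB49 and 0.21 in TA60 to TA99. The median of a plate and that of the next plate correlated with r = 0.038 over 49 pairs.

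The highest plate medians were those of TB80 (0.69 in I, 0.48 in II) and TB54 (0.67 and 0.58). TB70 (0.41 and 0.45), TB58 (0.34 and 0.43) and TB95 (0.42 and 0.44) followed. These plates were high in different ways. TB80 had 33 of its 82 scored tiles at 1 or more (40.2%), TB95 29 of 96 (30.2%) and TB54 26 of 96 (27.1%). On TB70 and TB58 only 12 of 96 tiles reached 1 (12.5%), although limma called 67 tiles of TB70 higher and 1 lower. Over all scored tiles limma called 31.6% higher and 25.0% lower. TB70 was thus raised through many tiles of intermediate score, and its 90th percentile was 1.09, where that of TB95 was 1.49.

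The lowest plate medians were those of TB92 (-0.14 in I, -0.0040 in II), TB99 (-0.12 and -0.022), TB69 (-0.061 and -0.0036), TB91 (-0.044 and -0.075) and TB96 (-0.063 and 0.0016). TB69 and TB96 had the most tiles at -0.5 or less among these, 13 each. TB69 also had 14 tiles at 1 or more, and TB91 had 8. On no plate of the block was a tile at 1 or more lacking, and the count ran from 7 on TB64 to 33 on TB80, with a median of 15.5.

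**Figure D5:**
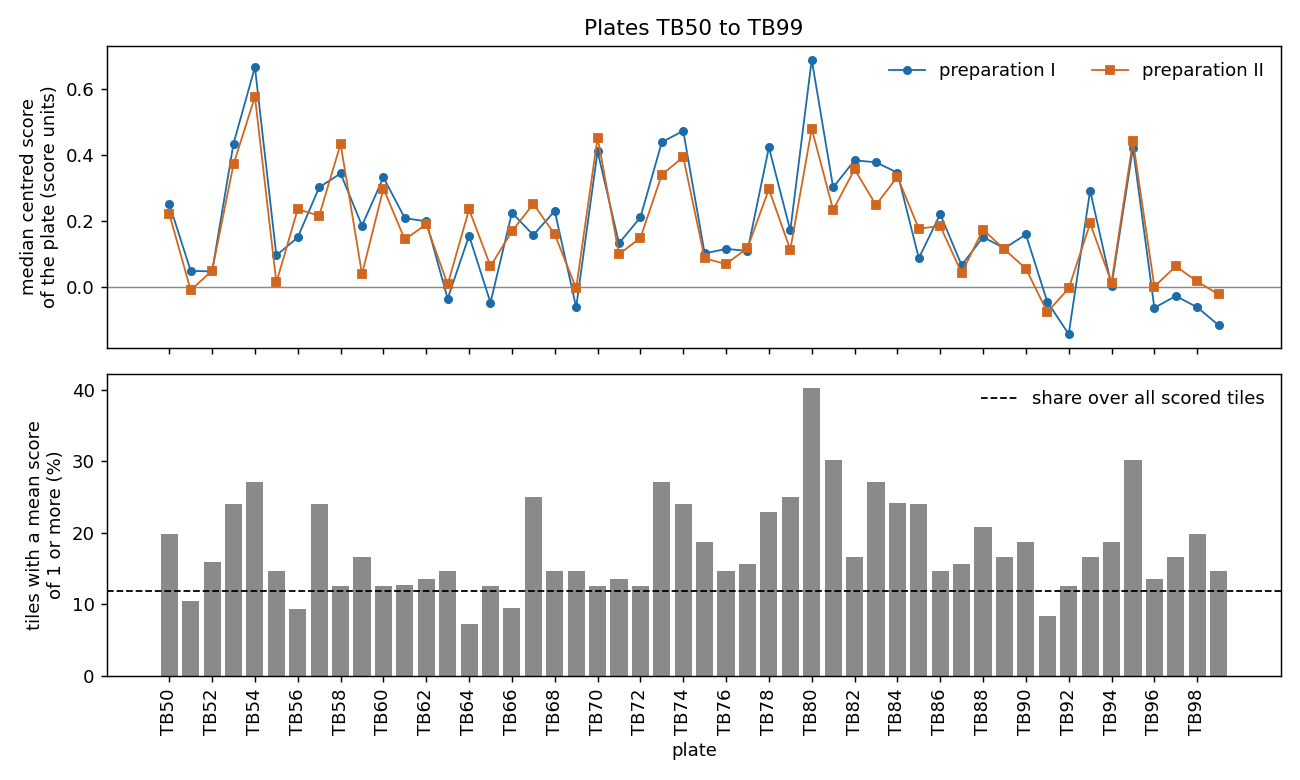
Upper panel, median centred score of each plate (vertical axis, score units) in preparations I and II along plates TB50 to TB99; lower panel, percentage of the plate's tiles with a mean score of 1 or more, with the share over all scored tiles (11.9%) as a dashed line. Both preparations peak at TB54 and TB80, the plates from TB91 on have medians of the mean score from -0.097 to 0.021 except TB93 and TB95, and TB80 has the largest share, 40.2%.

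In groups of 10 plates, the median of the mean score was 0.20 over TB50 to TB59, 0.13 over TB60 to TB69, 0.24 over TB70 to TB79, 0.25 over TB80 to TB89 and 0.024 over TB90 to TB99. The share of tiles at 1 or more was highest over TB80 to TB89, at 22.8%, and lowest over TB60 to TB69, at 13.7%. The last 10 plates combined a low median with 17.0% of tiles at 1 or more, and they had the most tiles at -0.5 or less, 70 of 960 (7.29%), against 2.54% to 3.76% in the other groups. High and low tiles were thus both present there. On the plates next in number, TC00 to TC04, the plate medians of the mean score ran from -0.23 to -0.046 and 3 to 12 tiles reached 1. On TB45 to TB49, just before the block, they ran from 0.13 to 0.33 with 12 to 26 such tiles. On TB95 the median was 0.41, and on TB96 to TB99, the last plates of the block, the medians ran from -0.070 to 0.021 with 13 to 19 such tiles. The plate medians thus overlapped across the end of the block.

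The median score of the block's tiles varied over the rows and columns of the plate. Row A had the lowest median of the mean score, 0.051, and row F the highest, 0.28, while columns ran from 0.11 to 0.26. Row A was the lowest and row F the highest row in each preparation, at 0.040 and 0.33 in I and 0.067 and 0.26 in II. Both preparations score the same tiles, so this adds no separate support. The range over rows was thus about as large as the difference of 0.22 between the block and all other tiles. Well position accounted for 1.59% of the variance. A random split of the tiles into as many wells would be expected to take up a share of this order. Neither this share nor the range over rows was tested against such a split. The 25 even-numbered plates had a median plate median of 0.22 in I and 0.19 in II, and the 25 odd-numbered ones 0.12 and 0.11. Of the 19 tiles of the block without a score, 14 were on TB80, all of them in rows B, D, F and H and in odd-numbered columns, so the values of TB80 come from a part of its wells. The part of plate handling or printing in these values was not tested.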

How the data were processed

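H3K9me3 immunoprecipitate and input were hybridised on 4 arrays of 2 colours, 2 for each chromatin preparation. The deposited table gives each feature of an array 1 signed score. The authors' steps behind this score (background correction, normalization, log base, centring, direction) are not given in the sources used here. Besides the tiles, 39 features have no score. Spot brightness was not used, so no tile was filtered on weak signal, and the number of preparations limits the precision.

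The identical arrays of a pair were averaged, the median over all 21716 tiles was subtracted within each preparation (deposited median -1.09 in I and -1.35 in II), and nothing else was scaled. limma (version 3.58.1, R 4.3.3; lmFit, eBayes) tested the mean of both preparations against 0 over all tiles with 1 residual degree of freedom per tile. The limma step was run on simulated normal noise with the fitted spread and known shifts. That checks the calculation only and says nothing on how well a shared spread describes these scores. Blocks were compared over preparations by exact sign flips. Other values come from numpy 2.4.6 and scipy 1.17.1. A run ends at a well without a score.

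The tiles were selected by identifier, but the choice of this range, like that of the limits and lists, was made with earlier results of these data known. Named were the 10 highest and 10 lowest tiles, the 5 with the largest difference between preparations, runs of at least 8 tiles at 1 or more, the 3 longest runs at -0.5 or less, the 5 highest and 5 lowest plates and the 3 largest steps. Further tiles and plates named in the text were picked with their values in view. The spread behind the p-values is that between 2 preparations, which may be technical. Alternatives changed the centring, scaling, variance model, threshold, minimum size, plates and preparations used.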

Additional observations from a re-analysis of the deposited data

How the results depend on the processing

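Of 48 values of the main results under other settings, 31 stayed within the limits set for a change. For the differences of medians the limit was the SD between the preparations. Leaving out either preparation cannot pass that limit, so those values counted as unchanged in advance and say nothing on stability. The count of higher tiles by limma moved from 2036 to 185 without centring and to 1053 with the treat minimum of 0.5. The count of lower tiles moved from 608 to 199 with mode centring, 3650 without centring and 22 with the treat minimum. At an adjusted p under 0.01 it was 360 (7.53%, all tiles 17.7%). At a size limit of 0.5 there were 1583 high tiles and 191 low ones (3.99%, all tiles 11.2%). With mode centring 4 tiles were at -1 or less. The shares over all tiles are not given for the 1583 and the 4, so these counts are not read as traits of the block. The difference of medians was 0.20 against all other tiles on plates with 96 scored tiles, and as a difference of means it was 0.24 against all other tiles, 0.096 against TB00 to TB49 and 0.15 against TA60 to TA99. The correlation of adjacent tiles was 0.61 with plate medians subtracted, 0.065 with wells taken by column and 0.6093 to 0.6098 in a single preparation. Of the 100 values for the named tiles, 1 turned the direction of a called tile: TB60A07 was -0.088 without preparation I and 1.071 without preparation II. The uncalled TB60C04 and TB60H01 also changed sign between the preparations. Leaving out plate TB80, chosen after seeing the data, gave 822 tiles at 1 or more and 12 at -1 or less. No limma test was possible with 1 preparation. No paired analysis was possible because the arrays form 1 group. Turned signs would exchange higher and lower.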
